A study of Mus musculus with 18 samples.

Results

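The cardiac transcription factors described here are 10 genes whose proteins work with Nkx2-5 in the developing heart: the zinc finger factors Gata4, Gata5 and Gata6, the basic helix-loop-helix factors Hand1 and Hand2, the MADS-box factors Mef2a, Mef2c, Mef2d and Srf, and the T-box factor Tbx5. They were chosen by symbol, and every probe set whose platform annotation named one of these genes alone was taken, whatever its signal. A probe set is a group of short oligonucleotide probes that is read out as 1 value. Of the 10 genes, 8 were on the arrays, among 6137 genes in all. They had 12 of the 13057 probe sets of the 2 array types. Srf and Tbx5 had none and were not analysed here.

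RNA came from mouse embryos at embryonic day 9.5, cut into 3 parts across the body, of which the middle one was used. The genotypes were null, homozygous mutant for Nkx2-5 (also called Csx), het, heterozygous, and wt, wild type. Each genotype was measured on 3 arrays of type a and 3 of type b, which carry different probe sets, 18 arrays in all. The labels give neither the strain nor the design of the mutant allele, and no source says if embryos were pooled for an array. Values are listed by replicate number: null 2, 6 and 8 on type a (2, 6 and 9 on type b), het 3, 4 and 8, and wt 1, 5 and 7. Since separate animals are not stated, the p-values reflect the spread from array to array, part of which may be technical.

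GATA, HAND, MEF2, SRF and T-box proteins form the core of the heart's gene regulatory network with Nkx2-5. They bind one another and neighbouring DNA sites, switch on contractile and hormone genes of heart muscle, and regulate one another's genes. HAND proteins bind DNA in pairs with ubiquitous E-proteins, and MEF2 and SRF activity is set by kinases, histone deacetylases and partner proteins.

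Intensity is the deposited value per probe set, on a linear scale with background subtracted, so it can be negative. A floor of 2 noise SD, 375.1 on type a and 523.1 on type b, marks what stood above the noise. Of the 12 probe sets 6 exceeded the floor on at least 3 of 9 arrays and were tested, for Gata4, Gata6 (on both array types), Hand1, Hand2 and Mef2d. Gata5, Mef2a and Mef2c had no probe set that did. Differences were tested with limma on log2 intensity over all 6935 tested probe sets, with Benjamini-Hochberg adjustment over both array types. A difference is called a change where its adjusted p was under 0.05. Intervals are 95% intervals of the fit, and the number of arrays limits the precision.

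Some arrays stood apart. The last null array, 8 on type a and 9 on type b, had an actin 3' to 5' ratio of 2.50 and 2.28, against 0.967 to 1.41 and 0.849 to 1.40 on the other arrays, and its BioB spike-in read 3950 and 4531 against 965.6 to 1539 and 1498 to 2320. Afp, a marker of visceral endoderm and liver, was high on null 2, het 4 and wt 1, with 1257.3 to 1775.2 on type a, and lay between 90.6 and 233.8 on the others. Het 8 of type b lacked 499 values, none of them of a member. No probe set was annotated to Nkx2-5 itself, so the genotype labels were not checked through the mutated gene.

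No cardiac transcription factor passed the test in any comparison. With limma, 0 of the 6 tested probe sets passed in null versus wt, where 0.692% of all tested probe sets did (48, and 777 at an unadjusted p under 0.05). In null versus het 0 of 6 passed against 1.15% of all (80, and 1090 unadjusted), and in het versus wt 0 of 6 passed against 0% of all (0, and 118 unadjusted). At an unadjusted p under 0.05, Hand2 and the type a probe set of Gata6 were past the line in null versus wt and in null versus het. These 2 genes stood at the ends of the members' range. Hand2 was 2.08-fold lower in null than in wt embryos and Gata6 was 1.81-fold higher at its type a probe set. With the floor of 2 noise SD the others differed by at most 0.32 on the log2 scale between null and wt. For Hand1 and Gata4, which had values under the floor, this depended on the floor. With a floor of 1 noise SD they had -0.57 and -0.58. On an inverse hyperbolic sine (asinh) scale without a floor they had -0.96 and -0.61. Neither passed in either setting.

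**Figure D1:**
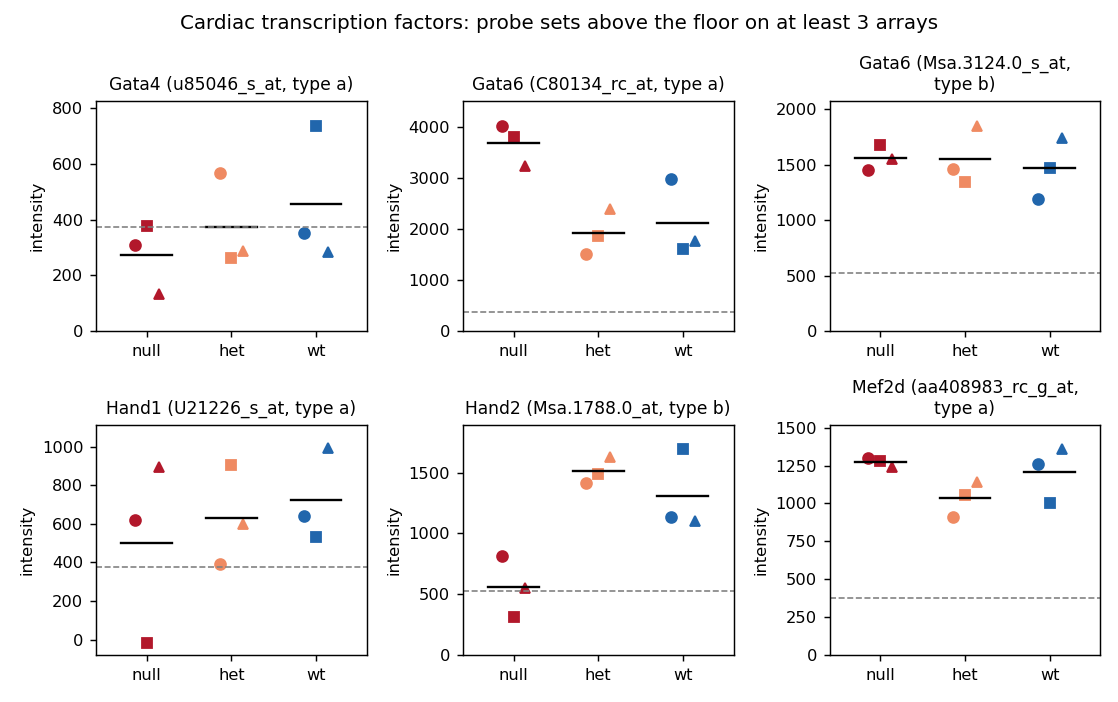
Intensity (linear) of the 6 probe sets that were bright enough to be tested, 1 panel each, with the genotypes null, het and wt from left to right. Each point is 1 array, marker shapes tell the 3 arrays of a genotype apart, the black line is their mean and the dashed line is the floor of the array type (375.1 on type a, 523.1 on type b). Hand2 lies lower on the 3 null arrays than on the other 6, and the type a probe set of Gata6 lies higher on them, while the genotypes overlap for Gata4, Hand1 and the type b probe set of Gata6.

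Hand2, also called dHAND, is needed for the right ventricle and the branchial arches in mice. At its 1 probe set, on type b, the intensity was 812.5, 314.9 and 551.6 in null embryos. It was 1418.0, 1488.6 and 1626.8 in het embryos and 1138.3, 1691.4 and 1101.2 in wt embryos. All 3 null arrays lay below all 6 others, and null 6 was under the floor. The means were 559.7 ± 249 in null, 1511 ± 106 in het and 1310 ± 331 in wt (SD, n = 3 each). The log2 fold change was -1.06 in null versus wt (SE 0.283, interval -1.68 to -0.44, adjusted p = 0.143 by limma) and -1.29 in null versus het, which is 2.45-fold lower (SE 0.283, interval -1.91 to -0.67, adjusted p = 0.0563 by limma). Het and wt overlapped, with 0.23 in het versus wt (interval -0.39 to 0.86). The order of the means was thus het, wt and null, and neither pair of neighbours differed past the threshold.

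Few probe sets lay as low in null embryos as Hand2. Of all tested probe sets, 0.952% had a log2 fold change in null versus wt as low as Hand2's or lower, and 0.678% in null versus het. Groups that did not overlap were more common: all null arrays lay below all wt arrays at 8.19% of the tested probe sets and below all het arrays at 12.6%. A fold next to the floor is understated, and with a floor of 1 noise SD it was -1.30 in null versus wt, while with a floor of 4 noise SD it was -0.30. In null versus het Hand2 passed under 2 of 19 alternative settings (adjusted p = 0.0456 when at least 6 arrays had to exceed the floor, and 0.0397 without an intensity trend in the fit), and over all 19 the adjusted p ranged from 0.0397 to 0.210. Without the last null array the log2 fold change was -0.98 in null versus wt and -1.21 in null versus het. Fewer Hand2-expressing cells and less Hand2 RNA per cell cannot be told apart in undivided tissue, and this holds for every gene here.

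Tissues other than heart also express Hand2, among them branchial arch mesenchyme, lateral mesoderm and sympathetic neurons. Of 10 mesenchyme and lateral mesoderm markers 7 were tested, none passed, and their median log2 fold change was 0.22 in null versus wt. Dlx2 and Dlx5, markers of the arches, were too dim to be tested. The summed intensity of the 5 tested genes on type a was 6318 to 7809 in null, 5981 to 7410 in het and 6051 to 6245 in wt embryos, so the null range lay above the wt range and overlapped het. The sum of Foxf1 and Msx1, the tested genes on type b, was 3871 to 5789 in null, 3478 to 6420 in het and 3204 to 6107 in wt embryos, and all ranges overlapped. The part of this tissue in the Hand2 difference was not tested. Of 11 neural markers 6 were tested, and all 6 had a negative log2 fold change in null versus wt and in null versus het. Their median was -1.05 in null versus wt, where none passed, and -1.06 in null versus het. There only Hes5, a Notch target of neural progenitors, fell (-1.26, adjusted p = 0.0335 by limma). Pax6 and Neurog1 were too dim to be tested. The summed intensity of the 2 genes tested on type b was 597.0 to 1253 in null, 2222 to 3598 in het and 2519 to 5552 in wt embryos. For the 4 genes tested on type a, with 5 probe sets, it was 5073 to 8397 in null, 11256 to 16859 in het and 11493 to 15346 in wt embryos. The null range lay below both others on each array type. Among single tested probe sets null lay below wt at 8.19% and below het at 12.6%, and no such share was computed for sums. The list covers neural tube and neurons in general and does not single out sympathetic neurons. The part of neural tissue in the Hand2 difference was not tested.

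The sequence before the Hand2 start is shown because Hand2 had the lowest fold change of the members, and GATA, HAND and Nkx2-5 proteins bind sites of the kinds marked in it. It is the 250 bases upstream of the RefSeq start on the plus strand of build GRCm38.p6, chr8:57320733-57320982. The same window of Smyd1, minus strand, chr6:71262282-71262531, stands below it. Smyd1, a heart and skeletal muscle methyltransferase that Hand2 expression requires in mice, was the gene with the lowest null-versus-wt fold change in the list of other heart regulators. Capitals mark GATAA (a core GATA site), AAGTG (a core Nkx2-5 site) and CANNTG (an E-box), on either strand.
Hand2: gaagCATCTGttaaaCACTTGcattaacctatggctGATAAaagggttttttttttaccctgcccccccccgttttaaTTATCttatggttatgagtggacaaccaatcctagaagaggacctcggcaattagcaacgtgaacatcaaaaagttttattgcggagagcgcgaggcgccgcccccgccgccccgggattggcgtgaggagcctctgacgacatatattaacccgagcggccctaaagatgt
Smyd1: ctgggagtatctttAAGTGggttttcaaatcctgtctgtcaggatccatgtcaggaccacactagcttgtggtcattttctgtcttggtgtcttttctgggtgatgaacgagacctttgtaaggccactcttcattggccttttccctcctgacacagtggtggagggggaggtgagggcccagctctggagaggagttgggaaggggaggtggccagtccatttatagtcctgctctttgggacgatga

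The Hand2 window held GATAA at 2 places, 214 and 172 bases before the start, and 2 E-boxes at 246 and 235 bases. The second E-box overlaps the window's 1 AAGTG match, which is read on the opposite strand. The Smyd1 window held AAGTG at 236 bases and neither of the other motifs. Neither held a CArG box, the site SRF binds. Such matches are common by themselves: of 32851 RefSeq promoter windows of the same length, 22.6% hold GATAA, 40.7% AAGTG, 66.2% CANNTG and 1.47% a CArG box. A match is a description of the sequence and says nothing of binding in these embryos.

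Hand1, also called eHAND, marks the outer curvature of the left ventricle and also extraembryonic tissue. Its 1 probe set (U21226_s_at, type a) read 618.4, -17.8 and 896.4 in null embryos, 391.3, 902.5 and 600.5 in het embryos and 642.5, 529.2 and 994.5 in wt embryos. The genotypes overlapped, and null 6 gave the lowest value, as it did for Hand2. The means were 499.0 ± 469 in null, 631.4 ± 257 in het and 722.1 ± 243 in wt (SD, n = 3 each). The log2 fold change was -0.23 in null versus wt (SE 0.388, interval -1.08 to 0.62, adjusted p = 0.890 by limma), -0.01 in null versus het and -0.22 in het versus wt. Without null 6 the null-versus-wt value turned to 0.10. With a floor of 1 noise SD that value was -0.57, and on the asinh scale without a floor it was -0.96. With an interval this wide, a fall of about the size fitted for Hand2 in null versus wt was not excluded for Hand1.

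The HAND proteins' E-protein partners were measured too. The list of cofactors and dimer partners had 21 genes, of which 13 were on the arrays and 12 were tested. In null versus wt none passed and the median log2 fold change was 0.02, against -0.02 over all tested probe sets. In null versus het 2 fell and none rose, where 1.15% of all tested probe sets passed, and the median was -0.21 against -0.07 over all. The list was chosen with earlier results of these data known, so the share beside it is a description and no test.

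Tcf3, the E-protein E2A with which HAND factors dimerise, was one of these. It read 1974.4, 2275.4 and 1435.6 in null embryos (x17500_s_at, type b), against 4470.1, 5021.6 and 3769.4 in het embryos and 3161.2, 4681.3 and 4058.7 in wt embryos. All null arrays lay below all wt arrays, as at 8.19% of all tested probe sets, and below all het arrays, as at 12.6%. Tcf3 fell in null versus het (-1.24, SE 0.238, adjusted p = 0.0335 by limma) and had -1.07 in null versus wt (SE 0.238, adjusted p = 0.0800 by limma). The other E-proteins gave a different picture: Tcf4 had 0.08 in null versus wt and Tcf12 0.10, and neither passed. The Tcf3 call in null versus het held in 10 of 19 alternatives, with adjusted p = 0.0309 to 0.194, and among others it was lost without null 2 (0.103), without the last null array (0.0619) and without het 3, 4 or 8 (0.148, 0.194 and 0.0674) or wt 7 (0.0564).

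Mapk7, the kinase ERK5 that activates MEF2 proteins, was the other one that fell in null versus het. It read 801.8, 508.7 and 678.0 in null embryos (type b), against 1927.3, 1975.1 and 1326.8 in het embryos and 1254.8, 1690.7 and 1379.7 in wt embryos. Again the null arrays lay below all wt arrays, as at 8.19% of all tested probe sets, and below all het arrays, as at 12.6%. The log2 fold change was -1.38 in null versus het (SE 0.288, adjusted p = 0.0486 by limma) and -1.12 in null versus wt (adjusted p = 0.125 by limma). This call was lost without any 1 of the replicates and held in 5 of 19 alternatives (adjusted p = 0.0298 to 0.210). The highest fold changes of the list in null versus wt were those of the histone deacetylase Hdac5, 0.49, which represses MEF2, and of the SRF partner Elk3, 0.42, and neither passed.

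**Figure D2:**
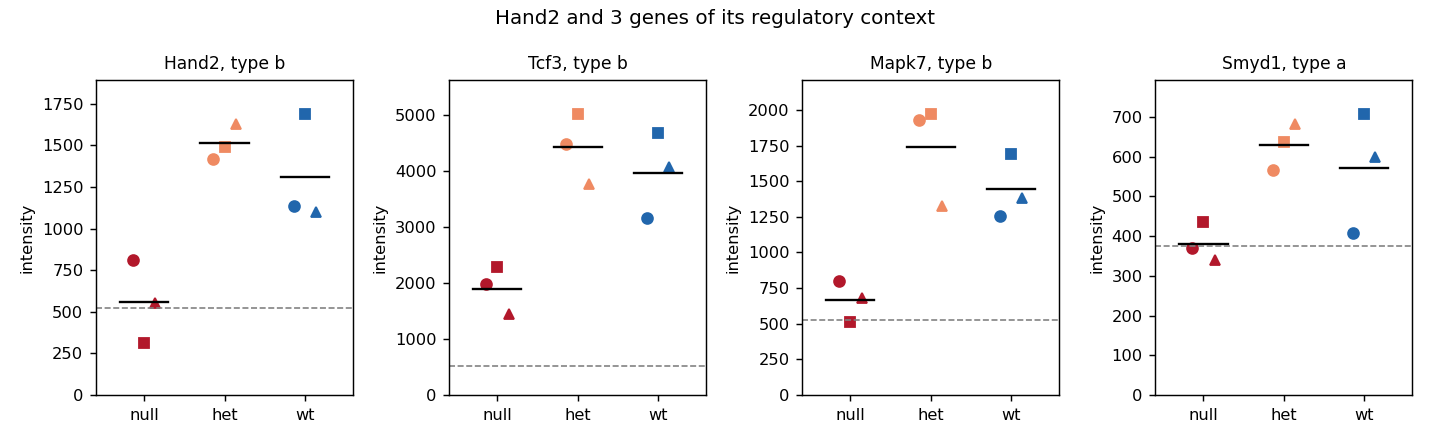
Intensity (linear) of Hand2, Tcf3 and Mapk7 on type b arrays and of Smyd1 on type a arrays, with null, het and wt from left to right. Points are single arrays, black lines the means of 3 arrays and dashed lines the floor. In the first 3 panels every null array lies below every het and wt array; for Smyd1 1 null array lies above the lowest wt array.

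Gata6 is expressed in heart, lateral mesoderm and endoderm. Its 2 probe sets did not give the same picture. On type a (C80134_rc_at) the intensity was 4025.4, 3808.7 and 3235.6 in null embryos, 1510.3, 1866.3 and 2390.3 in het embryos and 2980.3, 1603.0 and 1762.9 in wt embryos. All null arrays lay above all others, and the wt array nearest to them was wt 1. The means were 3690 ± 408 in null, 1922 ± 443 in het and 2115 ± 753 in wt (SD, n = 3 each). The log2 fold change was 0.85 in null versus wt (SE 0.256, interval 0.29 to 1.41, adjusted p = 0.200 by limma). It was 0.96 in null versus het, 1.95-fold higher (interval 0.40 to 1.52, adjusted p = 0.100 by limma), and -0.11 in het versus wt.

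On type b Gata6 read 1451.2, 1673.0 and 1554.2 in null embryos, 1461.3, 1346.3 and 1851.0 in het embryos and 1193.1, 1468.4 and 1736.2 in wt embryos. The genotypes overlapped, with means of 1559 ± 111 in null, 1553 ± 265 in het and 1466 ± 272 in wt (SD, n = 3 each). The log2 fold change was 0.10 in null versus wt (interval -0.47 to 0.68, adjusted p = 0.928 by limma) and 0.02 in null versus het (interval -0.56 to 0.59). The null-versus-wt intervals of the 2 probe sets overlap, and the difference between them was not tested. Whether either also takes up signal from other transcripts was not tested.

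Of all tested probe sets, 2.08% had a null-versus-wt fold change at least as high as Gata6 on type a, and 1.77% in null versus het. All null arrays lay above all wt arrays at 7.24% and above all het arrays at 9.99% of them. Over 19 alternatives the type a value kept its sign and stayed short of the threshold, at 0.68 to 1.13 in null versus wt (adjusted p = 0.0773 to 0.539) and 0.80 to 1.13 in null versus het (adjusted p = 0.0545 to 0.310). The highest null-versus-wt value and the lowest p came without wt 1, which is 1 of the 3 Afp-high replicates. Null 2, also Afp-high, had 4025.4, the highest value of all arrays of the type, and wt 1 was the highest wt array. Het 4, the third Afp-high replicate, had 1866.3, between het 3 and het 8. Of 16 liver and visceral endoderm markers, tissues that express Gata6, 11 were tested and none passed, while Foxa3 and Hnf4a were too dim to be tested. The summed intensity of the 5 genes tested on type a was 2832 to 5242 in null, 2309 to 5910 in het and 2088 to 4005 in wt embryos. For the 7 genes tested on type b, with 8 probe sets, it was 3514 to 9910 in null, 3671 to 8872 in het and 3052 to 10274 in wt embryos. The part of these tissues in the Gata6 values was not tested.

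Gata4, which partners Nkx2-5 directly on heart promoters, was near the noise. Its probe set (u85046_s_at, type a) read 310.9, 377.9 and 134.5 in null embryos, 567.8, 264.3 and 288.9 in het embryos and 353.0, 737.2 and 282.3 in wt embryos. In each genotype 1 of the 3 arrays exceeded the floor, so the fold changes compare mostly floor values. They were -0.32 in null versus wt (interval -0.90 to 0.26, adjusted p = 0.721 by limma), -0.20 in null versus het and -0.13 in het versus wt. Gata5, expressed in endocardium and its precursors, exceeded the floor on 1 array only, null 8, with 427.8, and on the other arrays of its probe set (U84725_s_at, type a) it lay between -204.3 and 298.8. It was not tested.

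Among the MEF2 factors, Mef2d was the 1 with a bright probe set (aa408983_rc_g_at, type a). It read 1297.3, 1280.1 and 1240.7 in null embryos, 910.1, 1055.3 and 1141.9 in het embryos and 1261.0, 1003.9 and 1357.2 in wt embryos. Null lay above all het arrays, as was the case at 9.99% of all tested probe sets, and within the wt range. The means were 1273 ± 29.0 in null, 1036 ± 117 in het and 1207 ± 183 in wt (SD, n = 3 each). The log2 fold change was 0.09 in null versus wt (interval -0.42 to 0.60, adjusted p = 0.928 by limma), 0.30 in null versus het (interval -0.21 to 0.81, adjusted p = 0.557 by limma) and -0.22 in het versus wt. At the brightest probe set of each tested member it varied least, with an SD of 0.20 over the 9 arrays on the log2 scale, against 0.65 for Hand2, 0.55 for Gata6 on type a, 0.51 for Hand1 and 0.36 for Gata4. The other Mef2d probe sets stayed low: aa408983_rc_at exceeded the floor only on null 6, with 382.1, and aa409010_rc_at was negative on every array, between -870.8 and -168.3.

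Mef2c, required in mice for the anterior heart field and the right ventricle, had a probe set on each array type and lay mostly under the floor. On type a (aa183623_s_at) it read 603.5, 498.8 and 279.2 in null embryos, 195.5, 357.3 and 353.9 in het embryos and 168.5, 343.2 and 353.4 in wt embryos. Only null 2 and null 6 exceeded the floor, and the third null array was lower than 2 arrays of each other genotype. With a floor of 1 noise SD the probe set could be tested and had 0.63 in null versus wt (SE 0.397, adjusted p = 0.642 by limma). On type b it read 345.8, 198.5 and 367.7 in null, 124.8, 116.2 and 151.2 in het and 195.6, 159.8 and 359.7 in wt embryos, all under the floor of that type. Mef2a (U30823_s_at, type a), with 132.7 to 309.6 in null, 52.9 to 344.8 in het and 76.9 to 155.9 in wt embryos, never exceeded the floor either. For Mef2a and the type b probe set of Mef2c the arrays give the floor as an upper limit of signal and no measure of a difference.

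**Figure D3:**
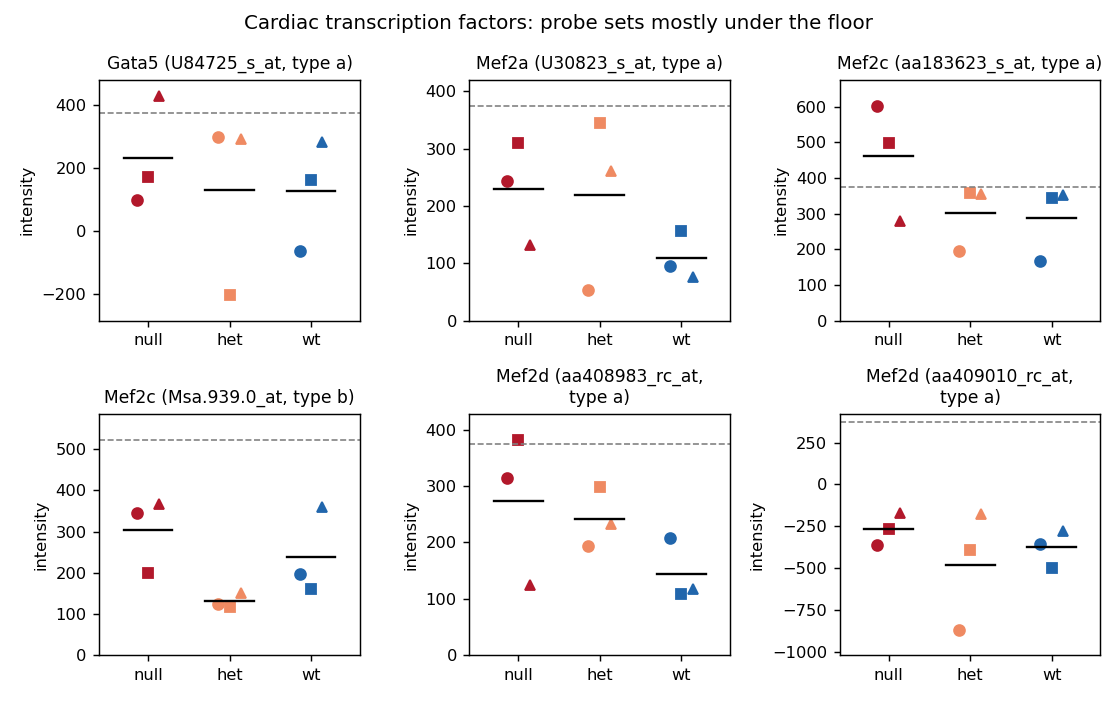
Intensity (linear, with negative values where background exceeded signal) of the 6 probe sets that were not tested, with null, het and wt from left to right, 1 point per array, the mean as a black line and the floor dashed. Only 4 of the 54 points lie above the floor, all on null arrays: 2 of Mef2c, 1 of Gata5 and 1 of Mef2d.

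**Figure D4:**
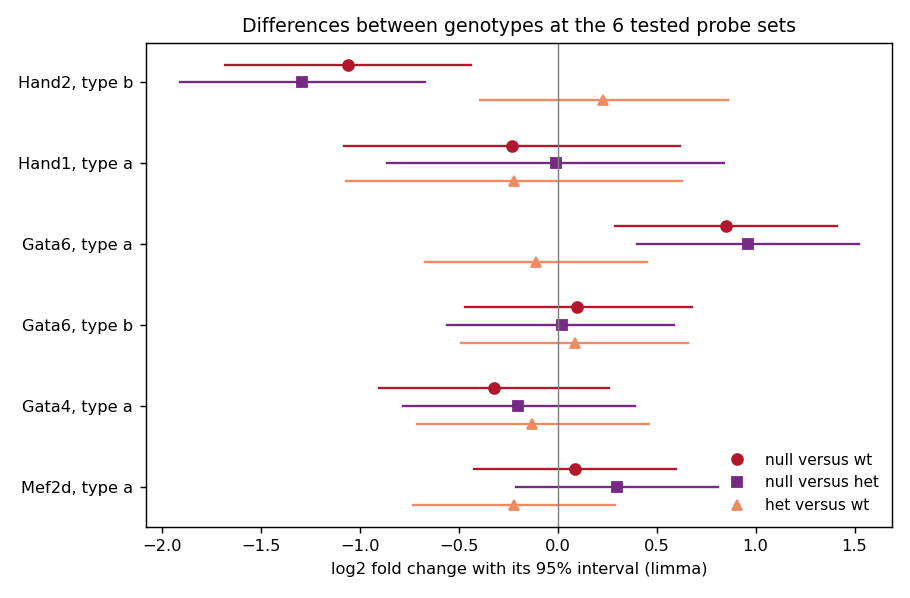
Log2 fold change with its 95% interval (horizontal axis) of the 6 tested probe sets for null versus wt, null versus het and het versus wt. The intervals of Hand2 and of Gata6 on type a exclude 0 in both comparisons with null before adjustment over all probe sets, and all 6 intervals of het versus wt include 0.

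In het versus wt the fitted differences of the members were smaller than in the other comparisons at Hand2 and at Gata6 on type a. The log2 fold changes ran from -0.22 for Hand1 and Mef2d to 0.23 for Hand2, the arrays of het and wt overlapped for all 6 probe sets, and no interval excluded 0. The median over all tested probe sets was 0.03 in this comparison. The 3 comparisons share their arrays, so the values of one are not independent of the others.

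Other regulators of heart development, as far as they were on the arrays, had no gene past the threshold. Of 26 genes, 12 were on the arrays and 7 were tested, with a median of 0.06 in null versus wt, 0.13 in het versus wt and -0.08 in null versus het. Smyd1 was lowest in null versus wt. It read 369.4, 434.6 and 339.8 in null embryos (u76371_s_at, type a), against 567.4, 638.5 and 683.1 in het embryos and 407.9, 709.1 and 600.5 in wt embryos. Null lay below all het arrays, as at 12.6% of all tested probe sets, and overlapped wt. The log2 fold change was -0.67 in null versus het (SE 0.227, adjusted p = 0.179 by limma) and -0.50 in null versus wt (adjusted p = 0.443 by limma). Only 1 null array exceeded the floor, which limits these folds. A second Smyd1 probe set (u76374_s_at, type a) was too dim to be tested. It read 153.5, 177.6 and 113.3 in null, 395.5, 311.8 and 338.0 in het and 244.9, 457.8 and 134.6 in wt embryos. In null versus wt the T-box repressor Tbx2 had -0.14 and Tbx3, its close relative, 0.22. A second Tbx2 probe set (U15566_s_at, type a) was negative on every array, between -1787.9 and -260.2, and was not tested. Tbx3 exceeded the floor on 3 null, 1 het and 0 wt arrays, so its value compares null arrays with the floor. Zfpm1, the GATA cofactor FOG1, had 0.50 in null versus wt, with 0.06 at a second probe set.

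None of the tested genes that these factors switch on in heart muscle passed. Of 24 heart target genes 16 were on the arrays, and all 16 were tested in the 3 comparisons, with a median of 0.12 in null versus wt, -0.19 in het versus wt and 0.26 in null versus het. Nppb, the B-type natriuretic peptide and a GATA4 target, was lowest with -1.15 in null versus wt (adjusted p = 0.129 by limma). It read 453.7, 770.4 and 831.8 in null embryos, 1235.4, 821.1 and 1183.9 in het embryos and 1261.6, 1622.2 and 1548.1 in wt embryos. Null lay below wt, as at 8.19% of all tested probe sets, and overlapped het. Myl2, the ventricular myosin light chain, had -0.84, and its null arrays alone spanned 2168.9, 7482.9 and 22957.1. Without null 2 its value was 0.03. Myl3, another ventricular light chain, was highest with 0.85 in null versus wt (adjusted p = 0.355 by limma) and 1.40 in null versus het (adjusted p = 0.0704 by limma). It read 10732.5, 10695.4 and 28777.1 in null embryos, 5859.3, 4547.8 and 6724.8 in het embryos and 8552.4, 8669.8 and 7572.2 in wt embryos. All null arrays lay above all wt arrays, as at 7.24% of all tested probe sets, and above all het arrays, as at 9.99%. The highest by far was null 9, the array with the high actin ratio. Without it the log2 fold change was 0.38 in null versus wt and 0.93 in null versus het. The calcium release channel Ryr2 came next with 0.53 in null versus wt.

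Cardiac muscle itself was present in all arrays. Of 11 cardiac muscle markers 7 were on the arrays and all 7 were tested. The summed intensity of the 5 genes tested on type a was 36367 to 108046 in null, 30840 to 70544 in het and 45779 to 70942 in wt embryos. For the 4 genes tested on type b, with 5 probe sets, it was 99667 to 196492 in null, 99137 to 124819 in het and 115782 to 158131 in wt embryos. The ranges overlapped on each type, the highest arrays were null 8 and null 9, and none of the 7 markers passed. The median log2 fold change was 0.12 in null versus wt, -0.36 in het versus wt and 0.27 in null versus het. All 7 were negative in het versus wt, while 6 were positive in null versus het and 5 in null versus wt.

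Srf had no probe set, and its targets are given in its place as a description. Of 18 Srf target genes 15 were on the arrays and 11 were tested, none passed, and the median was 0.07 in null versus wt, -0.13 in het versus wt and -0.01 in null versus het. The lowest were the focal adhesion gene Vcl with -0.29 and the smooth muscle gene Cnn1 with -0.22, and the highest were Actg1 and the smooth muscle gene Tagln, each with 0.22. Of 13 relatives of the members that act mainly outside the heart, 10 were on the arrays, 6 were tested and none passed, with a median of -0.14 in null versus wt. Gata2, a blood and endothelial GATA factor, was lowest with -0.77 (adjusted p = 0.391 by limma). It read 680.1, 553.4 and 351.5 in null against 1215.4, 854.0 and 680.5 in wt embryos, so the lowest wt array lay within 1 unit of the highest null array. Lyl1 had -0.42, with 0.17 at a second probe set. The mesenchymal factors Twist1 and Tcf21 were highest with 0.05 and 0.22, with 0.57 at a second probe set of Tcf21.

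For the 3 tested members that varied most, the genes with the most similar profile were found by the root mean square difference of log2 levels over the 9 arrays of a type, after each probe set's mean was taken away. For Hand2 these were Mapk7 (0.23), Pou3f2 (0.25), a POU factor of the neural tube, and Wbp11 (0.25), a splicing protein, among 1080 genes on type b. Pou3f2 read 1086.1 to 1406.9 in null, 1949.5 to 2679.9 in het and 1590.9 to 2406.4 in wt embryos. The brighter probe set of Wbp11, on type a, had only -0.14 in null versus wt. For Gata6 on type a, among 3549 genes, they were Decr1 (0.16), a mitochondrial fatty acid oxidation enzyme, Igfbp2 (0.18), a binding protein of insulin-like growth factors, and Polr1c (0.21), a subunit of RNA polymerases I and III. Igfbp2 rose in null versus wt (0.96, adjusted p = 0.0190 by limma), with 6077.4, 5700.3 and 5576.7 in null against 3366.0, 2634.1 and 2976.8 in wt embryos. For Hand1 they were Ap2a2 (0.23), an adaptor subunit of clathrin-coated vesicles, P3h4 (0.27), of the collagen-modifying complex, and Erdr1 (0.29). Both genes of such a pair are read from the same 9 arrays, and the likeness is a description with no test.

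**Figure D5:**
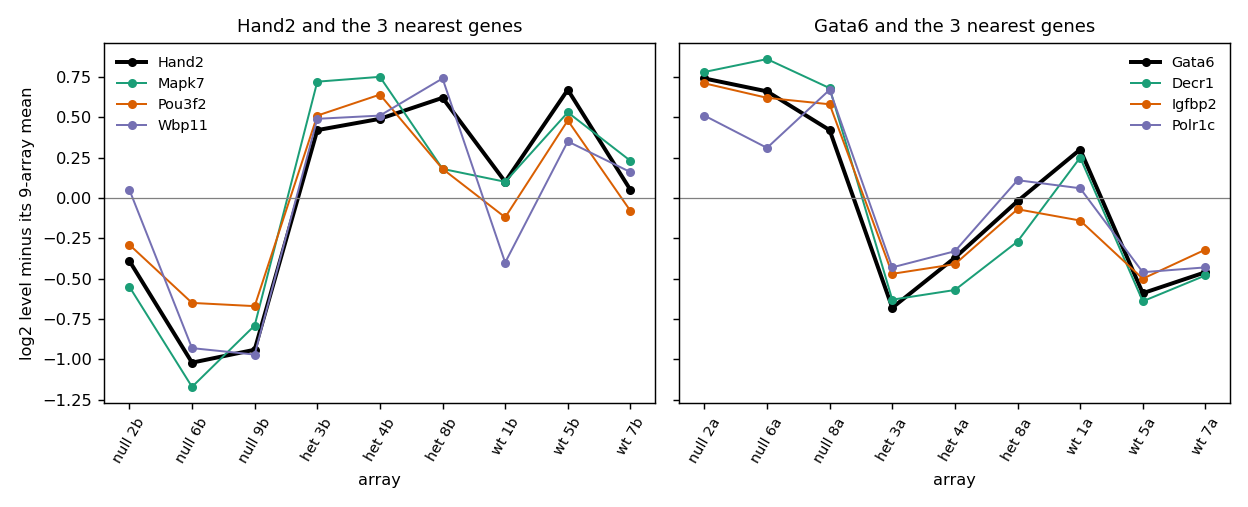
Log2 level minus its 9-array mean (vertical axis) on each array for Hand2 on type b and Gata6 on type a, each with its 3 nearest genes. Arrays are grouped as null, het and wt from left to right and have no order within a genotype; lines only join the points of a gene. The Hand2 profile is below 0 on the 3 null arrays and above 0 on the other 6, and the Gata6 profile is above 0 on the 3 null arrays and on wt 1.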

How the data were processed

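The authors deposited 1 intensity per probe set and array, on a linear scale with background subtracted, as read from the values; the sources used here do not give the array software, background correction or scaling. Groups came from the sample titles. Control probe sets (61 per type) were left out. Probe sets were named by the platform annotation, with symbols brought up to date by gene identifier, and those with several symbols were left unnamed. The authors' scaling was kept, values under the floor (2 times the noise SD of 187.5 on type a and 261.5 on type b, from the negative values) were replaced by the floor before taking log2. Probe sets above the floor on at least 3 of 9 arrays, 3969 on type a and 2966 on type b, were fitted per array type with limma 3.58.1 in R 4.3.3 (lmFit, eBayes with trend, two-sided), with Benjamini-Hochberg adjustment over both types. The procedure was tested on simulated data.

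The members, the gene lists and the rules were chosen with earlier results of these data known. Named are all members and, of each list, every gene past the threshold and the 2 highest and 2 lowest in null versus wt, at the brightest probe set of a gene. Markers of endothelium (5 of 7 genes tested) and primitive red cells (6 of 8) were also examined: none passed in any comparison, with medians of 0.17 and 0.00 in null versus wt. Promoter windows are from RefSeq, GRCm38.p6, where 6 of the 10 genes matched. Summed intensities add every tested probe set of the listed genes on an array type, with negative values left out of the sum. Alternatives changed the floor, filter, scaling, fit and replicates.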

Additional observations from a re-analysis of the deposited data

How the results depend on the processing

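Over 19 alternatives, 9 of which leave out a replicate, no tested member passed in null versus wt or het versus wt. In null versus het 1 member probe set, that of Hand2, passed when at least 6 arrays had to exceed the floor and without an intensity trend (-1.29 in both), and 0 under the others. Of 18 log2 fold changes of tested members, 10 kept their direction wherever they could be tested, and Gata4 could not be tested under 5 alternatives. The signs that turned were of small, uncalled values. With quantile normalization Gata6 on type b had -0.07 in het versus wt and Hand1 0.07 in null versus het. Leaving out 1 replicate gave a range in null versus wt of -0.04 to 0.23 for Gata6 on type b, -0.43 to 0.10 for Hand1 (-0.53 without the last null array) and -0.04 to 0.18 for Mef2d. The range in het versus wt was -0.28 to 0.17 for Gata6 on type a, -0.05 to 0.22 for Gata6 on type b and -0.52 to 0.08 for Hand1, and in null versus het it was -0.08 to 0.15 for Gata6 on type b and -0.31 to 0.32 for Hand1.

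The background counts moved more. In null versus wt 48 probe sets passed, 19 without a filter (more probe sets tested) and 7 with only the compared groups fitted (fewer arrays). Leaving out 1 replicate gave 8 to 48, with 8 without null 2, 14 without null 6 or wt 5 and 15 without wt 7. In null versus het 80 passed, 45 without a filter and 40 with only the compared groups fitted. Leaving out 1 replicate gave 15 (without het 3) to 72, with 16 without het 4, 23 without null 2 and 40 without het 8. In het versus wt it gave 0 to 1 (1 without het 8 and 1 without wt 7). No paired analysis was possible because the genotypes share fewer than 2 replicate numbers. Signal over the noise limits Gata4, Gata5, Mef2a and Mef2c.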
